A study of Locusta migratoria with 12 samples.

Results

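The comparison set 3 small RNA libraries of fat body taken from adult female migratory locusts (Locusta migratoria) 4 days after adult eclosion against 3 libraries taken on the day of eclosion, day 0. The labels give sex, tissue and age, and they name no strain, diet or agent for either age. These 6 libraries belong to a set of 12 libraries from 4 ages, days 0, 2, 4 and 6, with 3 libraries per age, and all 12 entered the fit. The members of the comparison were chosen by the age given in the labels and not by any measured value. The measured features were 90 groups of miRNA names, in which names of different species were joined where their counts were alike. Some groups hold a name of only 1 species. The groups are called miRNAs below and go by an arthropod name where they hold any.

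The insect fat body stores lipid, glycogen and protein, senses nutrient supply through insulin signalling, and in adult females makes the yolk protein precursors that the ovary takes up. In locusts this last task starts some days after eclosion under juvenile hormone, whose signal runs through its receptor and the transcription factor Kr-h1. A miRNA is a short RNA that lowers the output of mRNAs with matching sites, and the 2 strands of its hairpin are called the 5p and the 3p arm.

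The counts held by the joined groups ran between 1102893 and 2123029 per library at day 4 and between 384751 and 2174527 at day 0, where replicate 1 was the smallest. That library also held 2214 counts of 20 miRNA names known only from Lepidoptera, against at most 11 such counts in any day 4 library and at most 5 in the other day 0 libraries. Of the 90 miRNAs, 22 were over 2-fold higher and 26 over 2-fold lower in day 0 replicate 1 than in both other day 0 libraries. The median standard deviation of the log2 level among libraries was 0.21 at day 4 and 0.95 at day 0, and 0.29 at day 0 without replicate 1. Each result is therefore given with all 12 libraries and without day 0 replicate 1. Nothing in the labels tells whether libraries of one age are separate animals, and the p-values thus refer to differences among libraries that may be technical in origin. In such bulk tissue, fewer cells of a type and less RNA per cell cannot be told apart.

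At day 4 the levels of both miR-8 arms, miR-750, miR-33-5p, miR-995-3p and miR-252a-3p were higher than at day 0. Levels of miR-1-3p, miR-92a-3p, miR-278-3p, miR-31-5p and the let-7, miR-100 and miR-125 trio were lower. So were those of both miR-263 paralogues, both miR-10 arms and miR-184-3p. All levels are relative to the other miRNAs counted in a library, and amounts in the tissue cannot be read from them. In edgeR's quasi-likelihood test with Benjamini-Hochberg adjustment over the 90 miRNAs, 10 were higher at day 4 (11.1% of those tested) and 17 were lower (18.9%) at an adjusted p under 0.05. Of these, 6 of the higher and 16 of the lower ones carried an arthropod name. Without day 0 replicate 1, 15 of 91 were higher (16.5%) and 18 were lower (19.8%). The calls shared by both fits were 10 higher and 13 lower ones. Leaving out day 4 replicate 1 left 3 higher and 10 lower calls, and leaving out day 4 replicate 3 left 6 and 10. A fit of the 6 libraries alone, in which the spread is estimated without the other ages, called 7 higher and 7 lower. Of the 22 arthropod-named calls, 11 were not made in that fit (adjusted p 0.0552 to 0.157): miR-8-3p and its scarce form, miR-252a-3p, let-7-5p, both miR-125 profiles, both miR-10 arms, miR-184-3p, miR-193-3p and miR-2796-3p.

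The composition of the libraries moved with these calls. The miRNAs called higher took 56.4%, 54.2% and 58.4% of the counts in the day 4 libraries, against 9.64%, 37.4% and 28.8% in the day 0 libraries, replicates 1 to 3 in turn here and below. Most of this was miR-8-3p, which alone took 53.15%, 51.3% and 55.34% at day 4, against 8.32%, 36.05% and 27.17% at day 0. Those called lower took 8.08%, 8.7% and 8.1% at day 4, against 53.0%, 17.2% and 22.8% at day 0. Both sets were picked by their calls, so a difference of their shares between the ages follows from that choice. Both shares were nearly constant at day 4 and spread widely at day 0, with replicate 1 farthest out. All 10 called higher and all 17 called lower (11.1% and 18.9% of those tested) had levels that did not overlap between the ages, as did 44 of the 90 tested.

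Among the miRNAs that were higher, miR-8-3p was the most abundant miRNA by its mean over the 6 libraries. In flies miR-8 acts in fat body cells on insulin signalling and body growth, and in mosquitoes it acts in the fat body of reproducing females. Its normalised level was 556109, 532814 and 564028 CPM at day 4, against 69425, 335849 and 255249 CPM at day 0. CPM here are counts scaled by each library's total times its TMM normalisation factor. The 3 day 4 libraries lay close together above every day 0 library, and day 0 replicate 1 was far below its companions. The log2 change, day 4 minus day 0, was 1.32 with a standard error (SE) of 0.43 (edgeR adjusted p = 0.0324), and it was 0.93 (SE 0.17, adjusted p = 0.00235) without day 0 replicate 1. The call did not hold without day 0 replicate 3 (log2 change 1.44, adjusted p = 0.0551) nor with any one day 4 library left out (1.32 to 1.34, adjusted p 0.0763 to 0.0817).

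The other arm of the hairpin, miR-8-5p, had 29789, 26699 and 27058 CPM at day 4, against 10503, 11196 and 14638 CPM at day 0. Here day 0 replicate 1 lay beside its companions, and all day 4 libraries were higher. It was higher by 1.20 on the log2 scale (SE 0.26, edgeR adjusted p = 0.00651), and 1.15 without day 0 replicate 1 (adjusted p = 0.00235). A further, scarce profile with miR-8-3p names of 26 species, led by the beetle name tca-miR-8-3p, went the other way. It had 35.5, 24.5 and 30.3 CPM at day 4, against 2075 CPM in day 0 replicate 1 and 114 and 99.1 CPM in the other day 0 libraries. Its log2 change was -4.65 (SE 1.06, adjusted p = 0.00743), and -1.79 (SE 0.39, adjusted p = 0.00484) without day 0 replicate 1. How reads were divided between these near-identical miR-8 names is not given in the sources used here, so the level of the scarce form is uncertain.

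With all libraries, the largest log2 change among the arthropod-named miRNAs called higher was that of miR-995-3p, which shares its seed with the vertebrate miR-29 family. It had 445, 403 and 412 CPM at day 4, against 58.6, 64.7 and 77.9 CPM at day 0. All libraries of an age lay close together, day 0 replicate 1 included, and the day 4 mean was 6.27 times the day 0 mean. The log2 change was 2.64 (SE 0.37, edgeR adjusted p = 0.000474), and 2.60 without day 0 replicate 1 (adjusted p = 0.000655).

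A rise of similar size was seen for miR-33-5p, whose gene lies in an intron of the sterol regulator SREBP in flies and vertebrates and which acts on lipid metabolism. Its levels were 681, 475 and 529 CPM at day 4, against 73.7, 106 and 108 CPM at day 0, with no overlap and with the lowest value in day 0 replicate 1. The estimated log2 change was 2.54 (SE 0.70, edgeR adjusted p = 0.018), and 2.43 (SE 0.84, adjusted p = 0.0429) without day 0 replicate 1. Without day 4 replicate 1 it was 2.38 and missed the threshold (adjusted p = 0.0648), and so it did, at 2.24 (adjusted p = 0.0603), with total-count scaling and day 0 replicate 1 left out.

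The remaining miRNAs that rose were miR-750 and miR-252a-3p, neither with a well known fat body role. miR-750, which lies next to miR-1175 in insect genomes, had 2329, 2808 and 2506 CPM at day 4, against 267, 842 and 601 CPM at day 0. All day 4 libraries were above all day 0 libraries, among which replicate 1 was lowest, and the log2 change was 2.16 (SE 0.45, edgeR adjusted p = 0.00637), or 1.85 (adjusted p = 0.00265) without that library. Its neighbour miR-1175-3p had a log2 change of 0.11 and was not called. For miR-252a-3p the levels were 105, 99.8 and 93.2 CPM at day 4, against 28.2, 53.1 and 41.98 CPM at day 0. These ranges did not overlap, with a log2 change of 1.25 (SE 0.35, adjusted p = 0.018), or 1.09 (adjusted p = 0.0123) without day 0 replicate 1. That call was not made without day 4 replicate 1 (1.21, adjusted p = 0.0713) or without day 4 replicate 2 (1.24, adjusted p = 0.054).

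**Figure D1:**
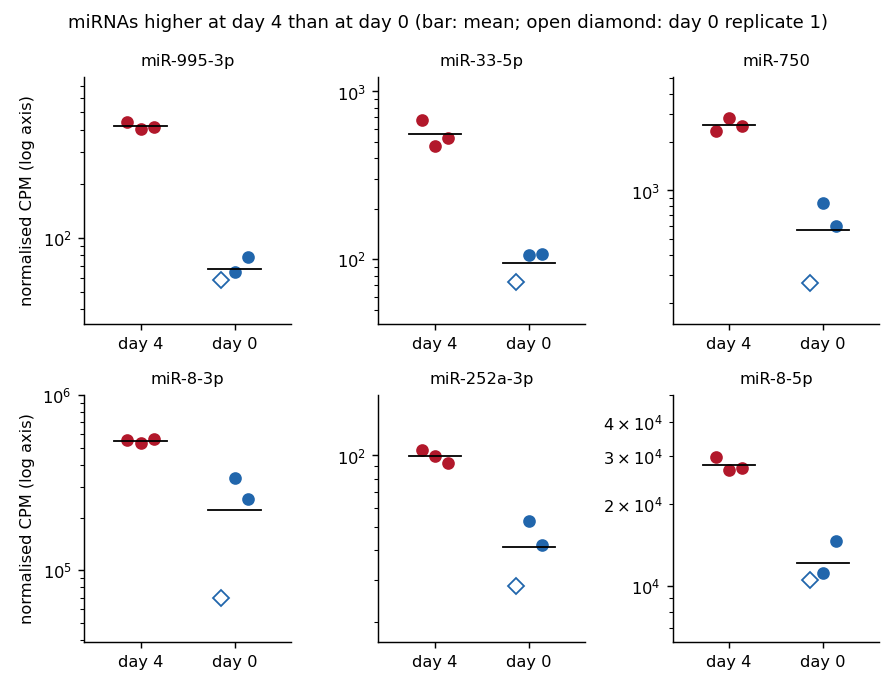
Normalised level (CPM, log axis) of the 6 arthropod-named miRNAs called higher at day 4, in each day 4 library (red, left) and each day 0 library (blue, right), with bars at the means of 3 libraries and an open diamond for day 0 replicate 1. In every panel the day 4 points lie above the day 0 points, and the diamond is the lowest point.

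Of the miRNAs that were lower at day 4, those whose calls did not rest on a high level in day 0 replicate 1 come first. miR-31-5p, a conserved miRNA with no settled fat body role, had 4446, 5201 and 3791 CPM at day 4, against 20227, 16083 and 17440 CPM at day 0. The 3 libraries of each age agreed closely, day 0 replicate 1 included, and the ages were far apart. The log2 change was -2.0 (SE 0.27, edgeR adjusted p = 0.000474), and -1.86 (SE 0.21, adjusted p = 0.000378) without day 0 replicate 1.

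miR-263a-5p and miR-263b-5p, paralogues of a miRNA reported to act on chitin turnover in locusts, fell side by side. miR-263a-5p had 407, 645 and 389 CPM at day 4, against 1863, 1529 and 2195 CPM at day 0. miR-263b-5p had 186, 267 and 174 CPM at day 4, against 618, 643 and 712 CPM at day 0. For both, day 4 replicate 2 was the highest of its age but stayed well below every day 0 library. The log2 changes were -1.96 (SE 0.36, edgeR adjusted p = 0.0048) for miR-263a-5p and -1.66 (SE 0.36, adjusted p = 0.00651) for miR-263b-5p. Without day 0 replicate 1 they were -1.90 (adjusted p = 0.00226) and -1.66 (adjusted p = 0.00359). A scarcer profile under the spider mite name tur-miR-263b-5p had 29.1, 24.5 and 24.7 CPM at day 4, against 32.5, 58.7 and 77.9 CPM at day 0, and was called without day 0 replicate 1 but not with all libraries (log2 change -1.34, adjusted p = 0.0138).

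Both arms of miR-10, which lies in the Hox gene cluster and targets Hox genes, were lower at day 4. miR-10-5p had 751, 1017 and 688 CPM at day 4, against 1275, 2292 and 3752 CPM at day 0. miR-10-3p had 150, 197 and 140 CPM at day 4, against 265, 422 and 668 CPM at day 0. In both arms day 0 replicate 1 was the lowest day 0 library and still lay above every day 4 library. The log2 changes were -1.58 (SE 0.43, edgeR adjusted p = 0.018) for the 5p arm and -1.48 (SE 0.40, adjusted p = 0.018) for the 3p arm. Without day 0 replicate 1 the falls were larger, at -1.83 and -1.69 (adjusted p = 0.00265 for both). Neither arm was called without day 0 replicate 3 (-1.12 and -1.08, adjusted p = 0.0554 for both), day 4 replicate 1 (-1.52 and -1.42, adjusted p = 0.0713 for both) or day 4 replicate 3 (-1.41 and -1.33, adjusted p = 0.078 for both).

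miR-1-3p, a muscle miRNA in flies and vertebrates, showed the deepest fall in the fit without day 0 replicate 1. It had 113, 43.3 and 151 CPM at day 4, against 180 CPM in day 0 replicate 1 and 3272 and 1767 CPM in the other day 0 libraries. Day 0 replicate 1 lay just above the day 4 libraries, so the ages did not overlap, but 2 of the 3 day 0 libraries carried the difference. The fitted log2 change was -4.09 (SE 0.97, edgeR adjusted p = 0.00809), -4.61 (SE 0.76, adjusted p = 0.00226) without day 0 replicate 1, and -3.25 (adjusted p = 0.0193) without day 0 replicate 2. A scarce miR-1 profile with no arthropod name, aca-miR-1a-3p, went the other way, with 25.6, 10.4 and 34.2 CPM at day 4, against 0, 2.57 and 4.05 CPM at day 0. All its day 4 levels were above its day 0 levels, and its log2 change was 3.08 (SE 0.92, adjusted p = 0.0255), or 2.85 (adjusted p = 0.0421) without day 0 replicate 1. The summed level of the muscle markers miR-1, miR-133 and miR-206 ran between 78.2 and 257 CPM at day 4 and between 362 and 3308 CPM at day 0. Of these, miR-133-3p had 71.95, 32.96 and 101.9 CPM at day 4, against 182 CPM in day 0 replicate 1 and 35.1 and 29.8 CPM in the other day 0 libraries, so the ages overlapped. Its log2 change was -0.21 (SE 0.90), and 1.11 (SE 0.90) without day 0 replicate 1, and it was called in neither fit. miR-206 had 6, 2 and 6 counts at day 4 and 0 in each day 0 library. aca-miR-1a-3p, miR-133-3p and bta-miR-378, which has no arthropod name, were all highest in day 2 replicate 2 and day 6 replicate 2. Their levels there were 64.5 and 83.5 CPM, 219 and 269 CPM, and 87.6 and 103.6 CPM in turn. Whether the reads of these profiles come from the locust was not tested. The part of muscle in the miR-1-3p result was not tested.

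**Figure D2:**
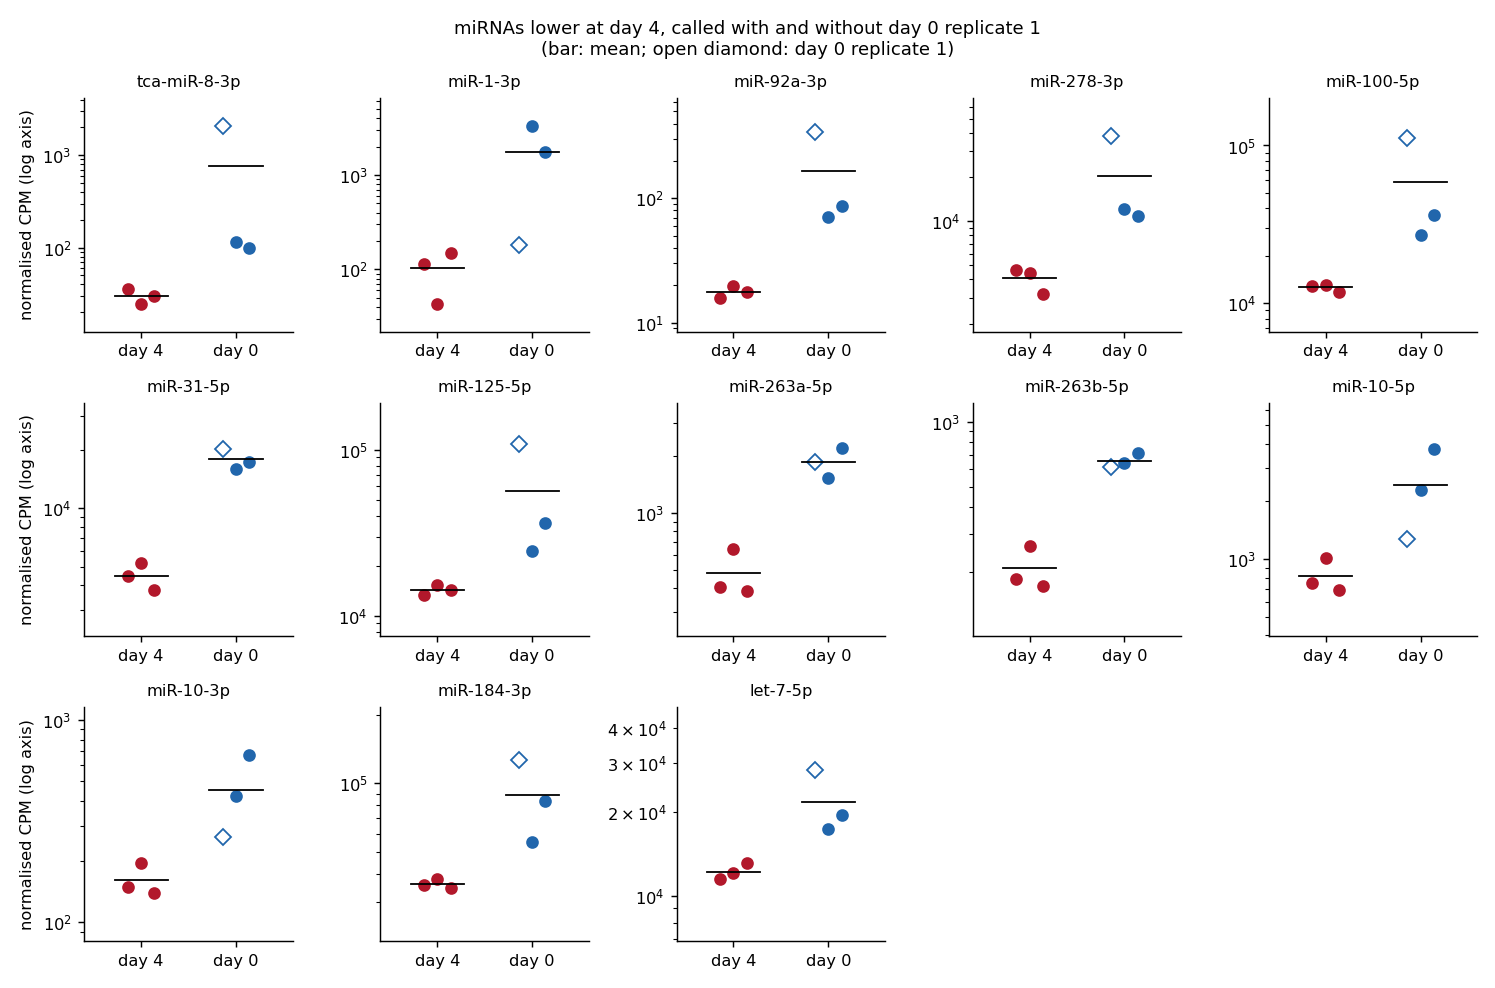
Normalised level (CPM, log axis) of the 13 miRNAs called lower at day 4 in both fits (the scarce miR-8-3p form by its beetle name), in each day 4 library (red, left) and each day 0 library (blue, right), with bars at the means of 3 libraries. The open diamond for day 0 replicate 1 lies far above its companions for tca-miR-8-3p, miR-92a-3p, miR-278-3p, miR-100-5p and miR-125-5p, close to them for miR-31-5p and both miR-263 paralogues, and below them for miR-1-3p and both miR-10 arms.

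let-7-5p, miR-100-5p and miR-125-5p are cut from one transcript in many insects, and let-7 takes part in the timing of development and metamorphosis. All 4 arthropod-named profiles of this trio were called lower, beside 18.9% of all miRNAs tested, with a median log2 change of -2.09, and 3 of the 4 were called without day 0 replicate 1, with a median of -0.85, beside medians of -0.08 and -0.05 over all miRNAs tested. miR-100-5p had 12919, 13106 and 11800 CPM at day 4, against 111337, 26952 and 36449 CPM at day 0. miR-125-5p had 13375, 15328 and 14298 CPM at day 4, against 107628, 24392 and 36094 CPM at day 0. let-7-5p had 11506, 12008 and 13054 CPM at day 4, against 28312, 17394 and 19429 CPM at day 0. Every day 0 library was above every day 4 library for the 3 miRNAs, and day 0 replicate 1 was the highest, least so for let-7-5p.

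The log2 changes in this trio were -2.21 (SE 0.48, edgeR adjusted p = 0.00651) for miR-100-5p, -1.97 (SE 0.46, adjusted p = 0.00809) for miR-125-5p and -0.83 (SE 0.25, adjusted p = 0.0265) for let-7-5p. Without day 0 replicate 1 they were smaller but still called, at -1.28 (SE 0.24, adjusted p = 0.00265), -1.03 (SE 0.21, adjusted p = 0.00359) and -0.55 (SE 0.14, adjusted p = 0.0123). let-7-5p was not called when day 4 replicate 1 (-0.79, adjusted p = 0.0984), replicate 2 (-0.83, adjusted p = 0.0825) or replicate 3 (-0.85, adjusted p = 0.078) was left out. The fourth profile, held by the honeybee name ame-miR-125 alone, had 115, 152 and 143 CPM at day 4, against 1692, 153 and 300 CPM at day 0. Its log2 change of -2.38 (adjusted p = 0.0308) became -0.67 (adjusted p = 0.242) without day 0 replicate 1, and day 0 replicate 2 was level with day 4 replicate 2. It was not called with any 1 day 4 library left out (adjusted p 0.0825 to 0.0984). The let-7 profiles with no arthropod name were called in neither fit. aca-let-7f-5p was at -1.97 on the log2 scale (adjusted p = 0.093), or -0.32 without day 0 replicate 1, and mmu-let-7c-5p at -1.0 (adjusted p = 0.168), or -0.17.

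miR-278-3p, which is reported to act on Kr-h1 mRNA in locusts and on insulin response in flies, had 4608, 4416 and 3181 CPM at day 4, against 38105, 12042 and 10814 CPM at day 0. Day 0 replicate 1 was the highest library and the other day 0 libraries were also above all day 4 libraries. The log2 change was -2.32 (SE 0.46, edgeR adjusted p = 0.00611), and -1.46 (SE 0.23, adjusted p = 0.00226) without day 0 replicate 1. miR-184-3p, which is needed for egg formation in flies, had 35611, 37674 and 34474 CPM at day 4, against 126515, 54987 and 83521 CPM at day 0. The day 4 libraries were almost level and all below the lowest day 0 library. Its log2 change was -1.30 (SE 0.29, adjusted p = 0.00651), or -0.89 (SE 0.15, adjusted p = 0.00226) without day 0 replicate 1.

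miR-92a-3p, a member of a seed family found in insects and vertebrates, was scarce, with 32, 21 and 22 counts in the day 4 libraries and 158, 165 and 173 counts in the day 0 libraries. Normalised, it had 15.8, 19.8 and 17.5 CPM at day 4, against 343, 70.7 and 87.5 CPM at day 0. Day 0 replicate 1, which was the smallest library, gave the highest level, and the other day 0 libraries were also above all day 4 libraries. Its log2 change was -3.22 (SE 0.65, edgeR adjusted p = 0.00611), and -2.12 (SE 0.41, adjusted p = 0.00265) without day 0 replicate 1.

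The calls for miR-2796-3p and miR-193-3p rested on day 0 replicate 1. miR-2796-3p had 102, 104 and 54.1 CPM at day 4, against 1505 CPM in day 0 replicate 1 and 108 and 115 CPM in the other day 0 libraries. Its log2 change of -2.73 (SE 0.89, edgeR adjusted p = 0.0331) became -0.33 (SE 0.41, adjusted p = 0.574) without that library. miR-193-3p had 8.87, 8.48 and 5.57 CPM at day 4, against 126, 14.1 and 18.2 CPM at day 0. It changed by -2.69 (SE 0.82, adjusted p = 0.0265) on the log2 scale with all libraries, and by -1.02 (SE 0.46, adjusted p = 0.103) without day 0 replicate 1. For both, the day 4 levels stayed below every day 0 level, but apart from day 0 replicate 1 the gap was small. Leaving out any 1 day 4 library also ended both calls, with adjusted p between 0.0741 and 0.126. The arthropod name of the miR-193-3p profile, hme-miR-193-3p, is a butterfly name, and the profile holds names of 3 species. Day 0 replicate 1 held by far the most counts of names known only from Lepidoptera. Whether its miR-193-3p reads came from the locust was not tested.

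**Figure D3:**
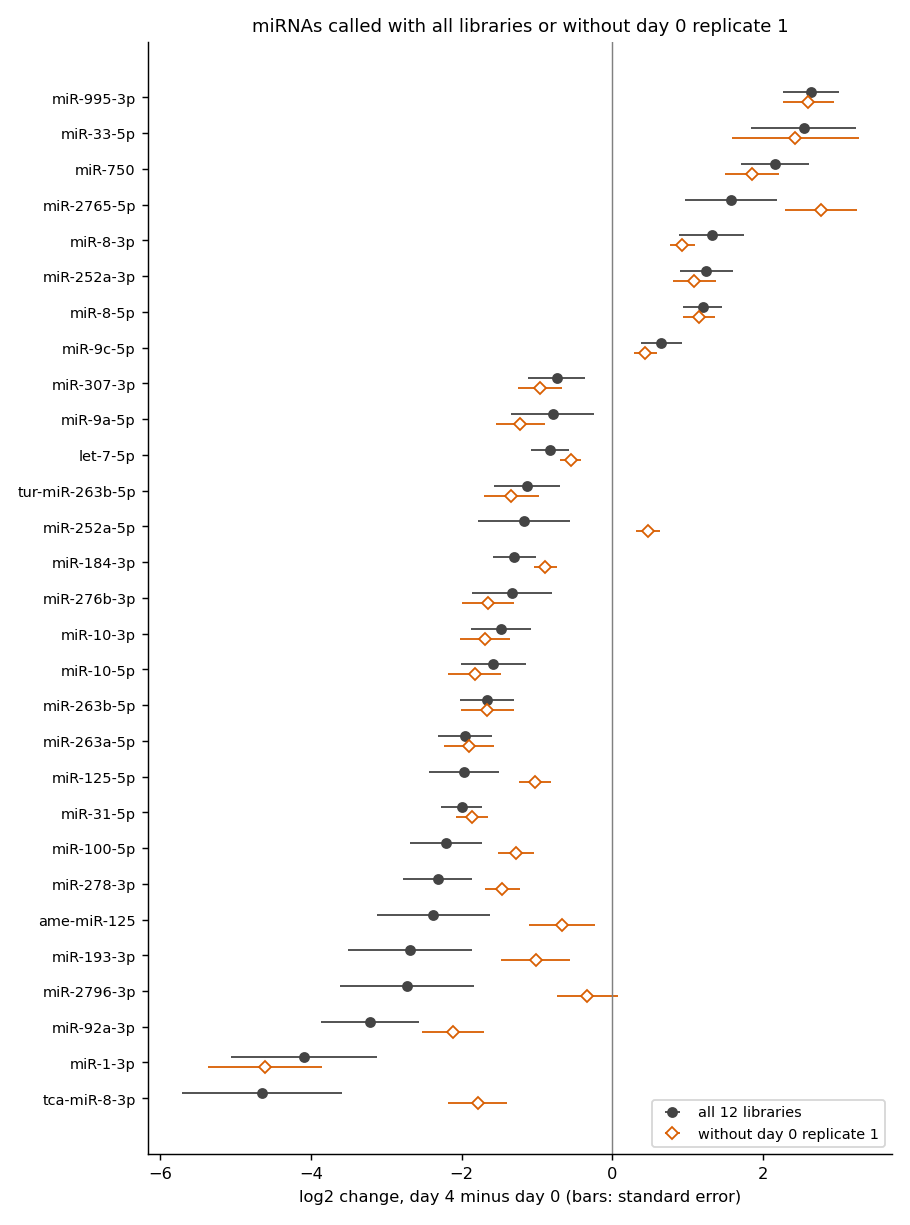
Log2 change, day 4 minus day 0, with its standard error, for each arthropod-named miRNA called in at least 1 fit, from the fit of all 12 libraries (filled circles) and from the fit without day 0 replicate 1 (open diamonds). The diamonds lie nearer to 0 than the circles for tca-miR-8-3p, miR-92a-3p, miR-2796-3p, miR-193-3p and ame-miR-125, and miR-252a-5p lies on opposite sides of 0 in the fits.

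Leaving out day 0 replicate 1 added calls for 7 arthropod-named miRNAs, the scarce miR-263b-5p form among them. The one with the largest change was miR-2765-5p, with 2617, 3430 and 1711 CPM at day 4, against 1848 CPM in day 0 replicate 1 and 399 and 375 CPM in the other day 0 libraries. Day 0 replicate 1 lay within the day 4 range and its companions far below it. The log2 change was 1.57 (SE 0.61, edgeR adjusted p = 0.0803) with all libraries and 2.77 (SE 0.48, adjusted p = 0.00226) without day 0 replicate 1. miR-252a-5p, the other arm of the miR-252a hairpin, had 3448, 2941 and 3380 CPM at day 4, against 17150, 2371 and 2450 CPM at day 0. With that single high library its log2 change was -1.17 (adjusted p = 0.156) with all libraries, and it was 0.47 (SE 0.16, adjusted p = 0.0389) without it, while without day 0 replicate 2 it was called lower (-1.59, adjusted p = 0.0434).

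The others called without day 0 replicate 1 but not with all libraries were miR-9c-5p, miR-9a-5p, miR-307-3p and miR-276b-3p. miR-9c-5p had 28737, 27097 and 26822 CPM at day 4, against 11162, 22619 and 18903 CPM at day 0, and its log2 change was 0.44 (SE 0.15, edgeR adjusted p = 0.0429) without that library and 0.65 (adjusted p = 0.0841) with it. It was also called without day 0 replicate 2 (0.87, adjusted p = 0.0331). miR-9a-5p, which steadies sense organ formation in flies, had 5350, 5932 and 3697 CPM at day 4, against 1930, 11311 and 12639 CPM at day 0, and the log2 change without that library was -1.22 (adjusted p = 0.0138). These members of the miR-9 family moved in opposite directions in that fit, with day 0 replicate 1 the lowest library for both. The log2 changes without that library were -0.96 (adjusted p = 0.0247) for miR-307-3p and -1.65 (adjusted p = 0.00359) for the scarce miR-276b-3p, which had 10.8 ± 3.14 CPM at day 4 and 25.9 ± 15.0 CPM at day 0 (SD, n = 3 each).

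Of the 10 most abundant miRNAs, which together took 85.8% to 86.4% of the counts at day 4 and 74.4% to 82.9% at day 0, miR-8-3p was called higher, and miR-184-3p, miR-100-5p and miR-125-5p were called lower. The other 6 were not called with all libraries. miR-276-3p, which promotes synchronous egg hatching in locusts, averaged 116830 ± 17008 CPM at day 4 and 122814 ± 57789 CPM at day 0 (SD, n = 3 each), with a log2 change of -0.07 (SE 0.34). bantam-3p, a growth-promoting miRNA in flies, averaged 61431 ± 1546 CPM at day 4 and 69032 ± 47639 CPM at day 0, with a log2 change of -0.17 (SE 0.51). Their day 0 values were low in replicate 1 and high in its companions, at 56379, 150620 and 161444 CPM for miR-276-3p and 15328, 85571 and 106199 CPM for bantam-3p. Apart from replicate 1, every day 0 level lay above every day 4 level for both, and the log2 changes without that library were -0.38 (edgeR adjusted p = 0.0625) and -0.60 (adjusted p = 0.0565), which missed the threshold. Also without that library, both were called lower with total-count scaling (-0.56, adjusted p = 0.00855, and -0.79, adjusted p = 0.00745) and in the fit of the compared libraries (-0.38, adjusted p = 0.0478, and -0.60, adjusted p = 0.00257). DESeq2 called bantam-3p lower there (-0.65, adjusted p = 0.0443) but not miR-276-3p (-0.43, adjusted p = 0.0807).

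miR-14-3p, which limits fat storage in flies, had 29420, 25739 and 30583 CPM at day 4, against 3286, 27069 and 31380 CPM at day 0. Apart from day 0 replicate 1 its levels overlapped between the ages, and the log2 change was 0.47 (SE 0.67) with that library and 0.01 (SE 0.44) without it. miR-275-3p, which is needed for blood digestion and egg development in mosquitoes, had 21961, 24559 and 20874 CPM at day 4, against 99715, 19532 and 19551 CPM at day 0. One library again set the direction, with a log2 change of -1.04 (SE 0.52) with day 0 replicate 1 and 0.24 (SE 0.14) without it, and neither was called, while without day 0 replicate 2 it was called lower (-1.41, adjusted p = 0.0404). miR-306-5p averaged 19543 ± 977 CPM at day 4 and 23274 ± 2829 CPM at day 0 (SD, n = 3 each), with a log2 change of -0.25 (SE 0.26), and its ranges overlapped.

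Both arms of 9 hairpins were measured, which gives each hairpin a second reading from other reads. The arms of miR-8 were both called higher and those of miR-10 both called lower, in both fits. In miR-252a the 3p arm was called higher with all libraries and the 5p arm, the more abundant one, was not, while both were called higher without day 0 replicate 1. In miR-276, miR-71, miR-281 and miR-190 neither arm was called in either fit. In miR-9a and miR-307 no arm was called with all libraries, and 1 arm of each was called lower without day 0 replicate 1. These were miR-9a-5p at -1.22, beside -1.06 for miR-9a-3p (adjusted p = 0.0938), and miR-307-3p at -0.96, beside -0.15 for miR-307-5p (adjusted p = 0.747), and the difference between arms was not tested. The miR-281 arms had the widest spread, with 51.8, 30.1 and 117 CPM at day 4 for the 5p arm, against 521, 538 and 55.6 CPM at day 0. One day 0 library lay within the day 4 range, and the log2 change of -2.48 (SE 1.02) had an edgeR adjusted p of 0.0841.

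**Figure D4:**
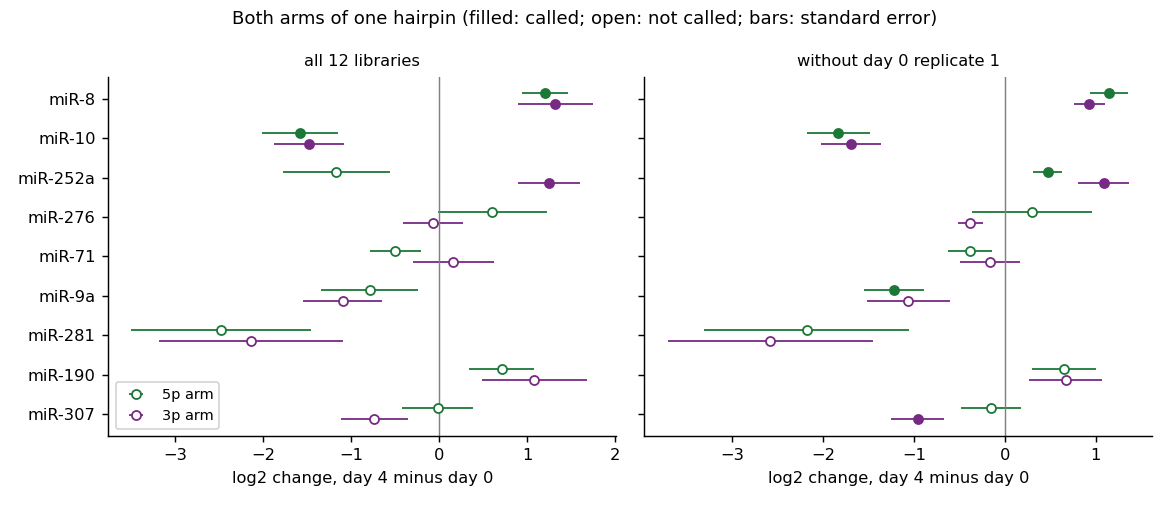
Log2 change, day 4 minus day 0, of the 5p arm (green) and the 3p arm (purple) of 9 hairpins, with standard errors, from all 12 libraries (left) and without day 0 replicate 1 (right). Filled points were called, as both arms of miR-8 and miR-10 were in both panels, and the miR-252a 5p arm moves to the other side of 0 when day 0 replicate 1 is left out.

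Grouped by the roles reported for them, the arthropod-named miRNAs gave the following counts, with 11.1% of all miRNAs tested called higher and 18.9% called lower as the background. Of 6 profiles of miRNAs reported to act on Kr-h1 in insects (let-7, miR-278, miR-2 and miR-13), 2 were lower and 4 were not called in both fits. Their median log2 change was -0.46, and -0.22 without day 0 replicate 1. The 4 were a scarce miR-278 form, miR-2a-3p, miR-13a-3p and miR-13b-3p, at -1.03, -0.10, 0.33 and 0.76. Without day 0 replicate 1 they were at -0.35, 0.26, -0.09 and 0.35, so miR-2a-3p and miR-13a-3p changed sign. Of 7 profiles reported in locust chitin turnover and moulting (miR-71, miR-263 and miR-184), 3 were lower and 4 were not called, with a median of -1.13, and 4 were lower without day 0 replicate 1. Those not called included both arms of miR-71, at -0.50 and 0.16, or -0.38 and -0.16 without that library.

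Of 15 profiles with roles in nutrient, lipid and insulin signalling in flies, 3 were higher (both miR-8 arms and miR-33-5p), 3 were lower (miR-278-3p, miR-184-3p and the scarce miR-8-3p form) and 9 were not called. Without day 0 replicate 1 the scarce miR-276b-3p joined the lower ones. Their median log2 change was -0.07, and -0.35 without day 0 replicate 1, beside -0.08 and -0.05 over all miRNAs tested. Of 5 profiles with roles in mosquito reproduction, 2 were higher and 1 was lower, all 3 of them miR-8 forms, while miR-275-3p and miR-277-3p were not called. In the Hox cluster, 2 of 3 were lower, the miR-10 arms, and miR-iab-4-5p had a log2 change of -0.15. None of the 5 profiles of the miR-2, miR-13 and miR-71 cluster, the 3 of the miR-277, miR-34 and miR-317 cluster or the 2 of the miR-275 and miR-305 cluster was called in either fit. Of the 6 profiles numbered miR-9, miR-79 or miR-306, 0 were called with all libraries. Without day 0 replicate 1, miR-9c-5p was called higher and miR-9a-5p lower. These 6 were grouped by number alone, and which of them lie in a shared cluster was not checked.

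No miRNA is known to mark the fat body alone, but miR-8 and miR-14, which are abundant in fly fat body, ranked 1 and 8 by mean level over the 6 libraries. The nervous system markers summed to 563 to 742 CPM at day 4 and 516 to 664 CPM at day 0, nearly all of it miR-7, while miR-124 and miR-137 had at most 10 counts in any day 4 library and at most 28 in any day 0 library. The gut markers summed to 44.8 to 76.4 CPM at day 4 and 45.8 to 82.4 CPM at day 0. Of their 4 members, 3 had at most 3 counts in each library, the exception being miR-1175. Whether the locust has those 3 miRNAs was not checked, so their low counts do not show how much gut tissue was present. Of the 5 ovary and early embryo markers, 4 were at 0 counts in all 6 libraries, and whether the locust has those 4 was not checked either. The fifth, miR-989, had 113 counts in day 0 replicate 1 and 0 in the other 5 libraries. It was counted under the silkworm name bmo-miR-989a, in the library with by far the most counts of names known only from Lepidoptera. Whether these reads came from locust ovary was not tested. The 3 vertebrate blood and liver markers summed to 10.4 to 12.8 CPM at day 4 and 0 to 23.9 CPM at day 0. Of these, miR-486 had 22, 9 and 12 counts at day 4, against 2, 0 and 0 counts at day 0. miR-122 had 4, 2 and 2 counts at day 4, against 9, 0 and 0 at day 0, and miR-451 had 0 in all 6 libraries. Day 0 replicates 2 and 3 thus held no counts of these markers, while every day 4 library held some.

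The miRNA groups with no arthropod name were counted apart. Of those called higher, 4 had none: aca-miR-1a-3p, efu-miR-9341, lgi-miR-750 and pmi-miR-252a-5p, with log2 changes of 3.08, 2.24, 2.02 and 1.58. aca-miR-1a-3p, lgi-miR-750 and pmi-miR-252a-5p carry the numbers of miRNAs whose arthropod-named profiles are given above, and the first of these went against the direction of miR-1-3p. aca-miR-99b-5p was the only such group called lower, at -1.34, and it was at -0.87 (edgeR adjusted p = 0.0938) without day 0 replicate 1. Leaving out that library added calls for mmu-miR-466i-5p (2.07), bta-miR-378 (6.29) and pma-miR-1b (-2.66), the second of which had 0 and 1 counts in the remaining day 0 libraries, so its size is not well set.

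The levels at days 2 and 6 are given beside those at days 0 and 4, and any change from day 0 at another age rests on the same day 0 libraries. miR-31-5p averaged 17917 CPM at day 0, 6401 at day 2, 4480 at day 4 and 2833 at day 6. miR-263a-5p averaged 1862, 617, 480 and 254 CPM at these ages, and miR-10-5p 2440, 912, 819 and 460 CPM. The largest step in each of these was that between days 0 and 2, and the means went on down to day 6. Without replicate 1 their day 0 means were 16761, 1862 and 3022 CPM. For miR-100-5p the day 0 mean was 58246 CPM, or 31701 CPM without replicate 1, and the means at days 2, 4 and 6 were 11369, 12608 and 13187 CPM.

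Among the miRNAs that rose, miR-995-3p averaged 67.0 CPM at day 0, 235 at day 2, 420 at day 4 and 381 at day 6. miR-750 averaged 570, 1113, 2547 and 2184 CPM at these ages, so the means of both were highest at day 4. Day 6 replicate 3, at 553 CPM for miR-995-3p and 3093 CPM for miR-750, nevertheless lay above every day 4 library. The log2 changes, day 6 minus day 4, were -0.14 (SE 0.34) and -0.22 (SE 0.43), within their standard errors. For miR-33-5p the means were 95.9, 348, 561 and 652 CPM, but at day 6 a single library at 68.3 CPM lay below all day 4 libraries and its companions above them. miR-8-3p averaged 220175, 421399, 550984 and 691469 CPM. Without replicate 1 the day 0 means were 71.3 CPM for miR-995-3p, 721 CPM for miR-750, 107.0 CPM for miR-33-5p and 295549 CPM for miR-8-3p, each still below the mean at day 2.

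The test of day 4 minus day 2 called 0 miRNAs higher and 0 lower (0.0% each of 90) in edgeR's quasi-likelihood test. At an unadjusted p under 0.05 there were 2 higher and 3 lower ones. miR-750 and miR-995-3p had log2 changes of 1.19 (SE 0.44, adjusted p = 0.534) and 0.84 (SE 0.34, adjusted p = 0.605). miR-184-3p and miR-1-3p had -0.64 (SE 0.28, adjusted p = 0.605) and -2.76 (SE 0.91, adjusted p = 0.472). miR-315-5p, an activator of Wingless signalling in flies, had 25.1, 10.4 and 24.7 CPM at day 4, against 128, 68.2 and 537 CPM at day 2. Its log2 change, the largest of these 5, was -3.59 (SE 0.81, adjusted p = 0.0723). DESeq2 called that one lower (-3.48, adjusted p = 0.0006) and none higher. In edgeR it was called without day 2 replicate 2 (-4.04, adjusted p = 0.0226). A fit of the 6 libraries of days 4 and 2 alone called miR-750 and miR-995-3p higher and miR-184-3p and miR-1-3p lower, with adjusted p between 0.031 and 0.0362.

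**Figure D5:**
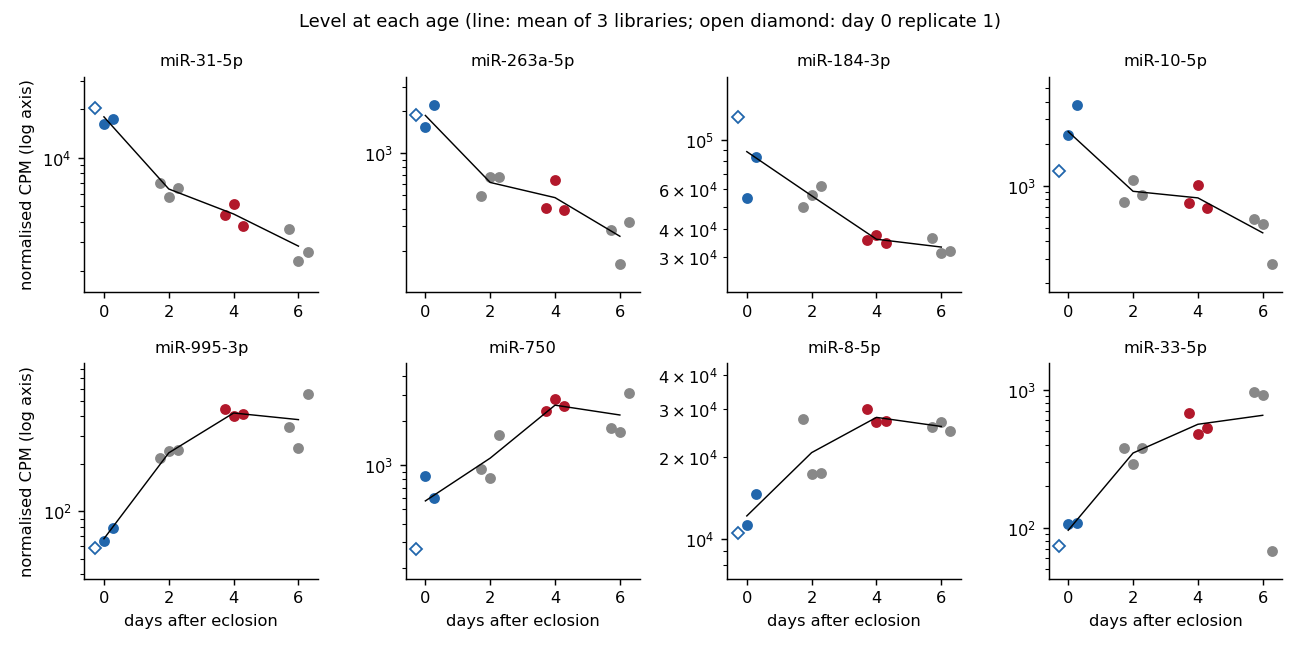
Normalised level (CPM, log axis) by days after eclosion for 4 miRNAs that were lower and 4 that were higher at day 4 than at day 0, with 1 point per library, day 4 in red, day 0 in blue, days 2 and 6 in grey, an open diamond for day 0 replicate 1 and a line through the means. The lines of miR-10-5p, miR-184-3p, miR-31-5p and miR-263a-5p run downward over all ages. Those of miR-995-3p and miR-750 are highest at day 4, though for both a day 6 library lies above every day 4 library.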

How the data were processed

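Small RNA from fat body of female locusts was sequenced after TRIzol extraction and Illumina library preparation, per the labels' protocols. The authors deposited counts per mature miRNA name, which were assumed to be raw. Their table lists 26711 names of 115 species, 14 of the names being of the locust, and has 12 sample columns and 0 of other samples. Aligner, mismatch limit, miRNA release and genome: not given in the sources used here. Columns were matched to samples through the descriptions, and replicate numbers are those of the titles.

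Counts were present for 5500 names in 884 distinct profiles, since reads were counted under each matching species name. The 1513 rows with at least 120 counts were joined where names of the same miRNA number held counts within 25% plus 5 in every library, or names of other numbers within 5% plus 3, which left 154 profiles. Profiles that kept a constant share of a more abundant one were then joined to it where number, arm and paralogue letter matched; the share could vary by a factor of 1.5, or by 2.5 counting SDs, and 1 library was allowed to break this. This left 102 groups, 81 with an arthropod name, each counted by its most abundant row.

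Groups passing filterByExpr (minimum count 10), 90 in all, were tested in edgeR 4.0.16 (R 4.3.3) with TMM factors, glmQLFit and glmQLFTest, and age as a factor over the 12 libraries. Calls were made at a Benjamini-Hochberg adjusted p under 0.05, and levels are TMM-normalised CPM. The standard error is the log2 change over the square root of F. Named miRNAs were those with an arthropod name and a mean of at least 10 CPM that were called in either fit, and the 10 most abundant. Markers and role lists are described by counts. The members and lists were chosen with earlier results of these data known. DESeq2 1.42.0, limma 3.58.1 and other normalisations, filters, joinings and sets of libraries were tried, and the test was checked on simulated data. The simulation gave all ages the same spread and held no outlying library, so it does not cover the case of day 0 replicate 1. Counts per library are given with the results, and day 0 replicate 1 had the fewest.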

Additional observations from a re-analysis of the deposited data

How the results depend on the processing

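Of the 22 arthropod-named calls between day 4 and day 0, 10 were made under every alternative run: miR-8-5p, miR-750 and miR-995-3p among the higher, and miR-263b-5p, miR-1-3p, miR-263a-5p, miR-92a-3p, miR-31-5p, miR-278-3p and miR-100-5p among the lower. None of the 22 changed sign under any of these (2 had no DESeq2 adjusted p), and 13 held whichever 1 of the 6 libraries was left out. Leaving out 1 library at a time gave 3 to 15 higher and 10 to 22 lower calls. The fit of the 6 libraries alone gave 7 higher and 7 lower, and kept 11 of the 22. Without day 0 replicate 1 the same fit gave 16 higher and 26 lower. Testing all rows unjoined, where 1 set of reads enters many times, gave 98 and 248 of 1641. The other normalisations, filters, tools and joinings gave 7 to 13 higher and 12 to 25 lower calls. Total-count scaling moved the median log2 change of all miRNAs to -0.31, from -0.08. With summed rows in place of the most abundant row it was 0.17, with 12 calls each way. Between days 4 and 2, a fit of those 6 libraries gave 2 higher and 2 lower calls, DESeq2 gave 1 lower, and leaving out 1 library gave 0 higher and 0 to 1 lower.

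The labels do not state whether equal title numbers pair samples. The correlations of same-numbered deviations from the age means were 0.0124, -0.179 and -0.229. Day 0 replicate 1 enters the day 0 means, so these values cannot decide whether samples were paired. As a replicate block the title numbers gave 9 higher and 13 lower calls. The description numbers, which leave day 0 replicate 1 alone in its block, gave 12 and 20. Under the description block miR-33-5p was not called (2.18, adjusted p = 0.0764) and bantam-3p was called lower (-0.76, adjusted p = 0.0114).

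Reversals of direction touched 6 named miRNAs that were not called with all libraries. With 1 library left out, the values ran between -1.59 and 0.47 for miR-252a-5p, -1.41 and 0.24 for miR-275-3p, -0.60 and 0.28 for bantam-3p, and -0.38 and 0.17 for miR-276-3p. miR-252a-5p was at 0.47 without day 0 replicate 1, and, also without it, at 0.29 with total counts, 0.47 in the fit of the compared libraries and 0.43 in DESeq2, and it was at 0.45 under the description block. miR-275-3p was at 0.24, 0.06, 0.24, 0.19 and 0.22 in the same order. miR-14-3p was at -0.18 with total counts and -0.04 in DESeq2, both without day 0 replicate 1. miR-306-5p was at 0.18 with all rows and 0.05 with summed rows. bantam-3p was at 0.21 in limma-voom, 0.02 without day 0 replicate 2, 0.28 without day 0 replicate 3, 0.14 with all rows, 0.10 with summed rows and 0.01 with arthropod names alone. miR-276-3p, at -0.07 in the main test, was at 0.03 with RLE factors, 0.01 with no filter, 0.02 in DESeq2, 0.05 in limma-voom and 0.04 in the fit of the compared libraries. It was at 0.10 and 0.17 without day 0 replicate 2 or 3, 0.08 without day 4 replicate 3, 0.28 with all rows, 0.07 after the first joining step, 0.19 with summed rows and 0.09 with arthropod names alone. The cause was not tested in any of these. Scarce forms rest on few counts: miR-193-3p had 7 to 18 per day 4 library.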
